A study of Mus musculus with 6 samples.

Results

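The genes described here encode the chains of complement C1q (C1qa, C1qb, C1qc), 4 surface receptors or surface proteins of microglia (Cx3cr1, P2ry12, Tmem119, Csf1r) and the TREM2 receptor with its adaptor (Trem2, Tyrobp). They were taken by name, with no measured value in the rule but with earlier results of these data known, and are 9 of the 54532 genes in the expression table. All 9 had a mean level above the filter of 0.5 FPKM (fragments counted on a gene, scaled by its exon length and by the fragments of the library), so all 9 were among the 14862 genes tested. RNA-seq was performed on whole RNA from brains of mice at postnatal day 15, from 3 Angptl2-/- and 3 Angptl2+/+ samples. Angptl2 encodes a secreted angiopoietin-like protein, and the study asked what its loss does to signalling in oligodendrocytes, the myelin-forming cells. The Angptl2-/- mice lack exon 2 of Angptl2 on the C57BL/6 background. They came from males with floxed Angptl2 and a Stra8-cre transgene, which is active in the male germ line, crossed with wild-type females, so the deletion is not limited to a cell type, and the methods describe no later intercross. The Angptl2+/+ mice carry both intact alleles, and the labels name no treatment for either genotype. The labels give all cell types of the brain as the source and do not state sex, dissection, litter or whether each sample is 1 animal. The p-values therefore measure the spread between these samples, which may be in part technical.

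Microglia are the resident macrophages of the brain. In the adult brain they are the main source of C1q, which is assembled from A, B and C chains and starts the classical complement cascade, and C1q tags synapses that microglia remove during postnatal development. CSF1R is the growth factor receptor that microglia need to survive, CX3CR1 and P2RY12 sense neuronal fractalkine and extracellular ADP, TMEM119 is a marker of resident microglia, and TREM2 senses lipids and signals through the adaptor TYROBP.

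Angptl2 itself had 0.166, 0.320 and 0.126 FPKM in Angptl2-/- libraries, against 0.660, 0.958 and 0.290 FPKM in Angptl2+/+ libraries (exact permutation p = 0.2). Angptl2-/- replicate 2 was above Angptl2+/+ replicate 3, and the value covers all exons, not exon 2 alone. The 6 libraries held 17127263 to 18928917 fragments assigned to genes. The mitochondrial share of fragments was 4.13 to 5.75% in Angptl2-/- and 3.31 to 4.56% in Angptl2+/+ libraries.

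The level of 4 genes did not overlap between the genotypes. C1qb, C1qc and Tyrobp were lower in every Angptl2-/- library than in every Angptl2+/+ library, and P2ry12 was higher. C1qa had a lower mean with overlap, and Csf1r, Cx3cr1, Tmem119 and Trem2 overlapped. No member passed the adjusted p of 0.05 (limma on log2(FPKM + 0.1), Benjamini-Hochberg over all genes tested), and neither did any of the 14862 genes (0.0%). The smallest adjusted p over all genes was 0.273, and voom on recovered fragments also called 0. At an unadjusted p under 0.05, 3 of the 9 members were lower, against 1355 (9.12%) of all genes tested, and 1 was higher, against 1054 (7.09%). Levels without overlap were seen downwards for 1759 (11.8%) and upwards for 1584 (10.7%) of all genes tested. The members' median log2 fold change was −0.18, with 7 negative and 2 positive values, against −0.0043 over all genes.

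**Figure D1:**
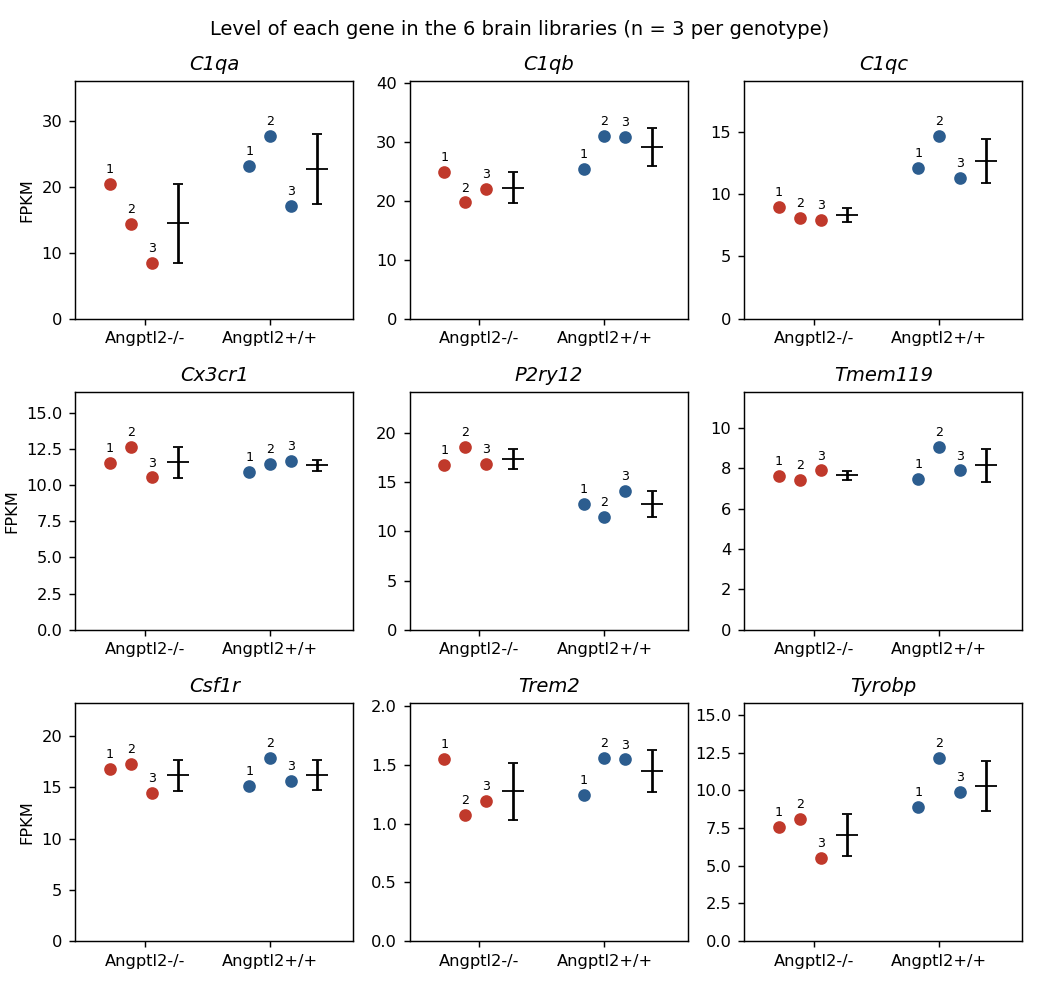
FPKM of each of the 9 genes (vertical axis, starting at 0) in the Angptl2-/- libraries (red, left) and the Angptl2+/+ libraries (blue, right). Each point is 1 library with its replicate number, and the black bar is the mean ± SD of 3 libraries. C1qb, C1qc and Tyrobp lie lower and P2ry12 higher in the Angptl2-/- libraries without overlap, while Csf1r, Cx3cr1, Tmem119, Trem2 and C1qa overlap.

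The 3 C1q genes lie next to each other on the minus strand of chromosome 4 (GRCm38, GENCODE M21), each with 3 exon blocks. C1qc, the gene of the C chain (ENSMUSG00000036896, chr4:136889804-136893065), had 8.99, 8.10 and 7.93 FPKM in Angptl2-/- libraries, against 12.1, 14.7 and 11.3 FPKM in Angptl2+/+ libraries. The mean was 8.34 ± 0.570 FPKM in Angptl2-/- and 12.7 ± 1.77 FPKM in Angptl2+/+ libraries (SD, n = 3 each). Every Angptl2-/- library was below the lowest Angptl2+/+ library. C1qc had the smallest p of the members, with a log2 fold change of −0.59 (SE 0.13, limma p = 0.0023, adjusted p = 0.273, exact permutation p = 0.1). An exact permutation test of 3 against 3 libraries cannot give a p below 0.1.

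C1qb, the gene of the B chain (ENSMUSG00000036905, chr4:136880129-136886187), had 24.9, 19.7 and 22.0 FPKM in Angptl2-/- libraries, against 25.4, 31.0 and 30.9 FPKM in Angptl2+/+ libraries. The groups did not overlap, but the highest Angptl2-/- library and the lowest Angptl2+/+ library were 24.9 and 25.4 FPKM, closer than the counting error of 4.09 to 5.26% on each value. The log2 fold change was −0.39 (SE 0.13, limma adjusted p = 0.274, exact permutation p = 0.1). C1qa, the gene of the A chain (ENSMUSG00000036887, chr4:136895917-136898803), had 20.5, 14.4 and 8.51 FPKM in Angptl2-/- libraries, against 23.1, 27.7 and 17.1 FPKM in Angptl2+/+ libraries. Angptl2-/- replicate 1 lay above Angptl2+/+ replicate 3, so the groups overlapped. C1qa had the lowest log2 fold change of the members, −0.71, and also the largest SE, 0.32 (limma adjusted p = 0.327, exact permutation p = 0.2), and its 95% interval ran from −1.46 to 0.05. Its coefficient of variation was 41.4% among Angptl2-/- and 23.5% among Angptl2+/+ libraries, above the counting error of 4.42 to 8.31%.

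The sum of the 3 chains was 54.4, 42.2 and 38.4 FPKM in Angptl2-/- libraries, against 60.6, 73.4 and 59.2 FPKM in Angptl2+/+ libraries, with no overlap. The chains did not keep 1 ratio across libraries. C1qb over C1qa was 1.22, 1.37 and 2.58 in Angptl2-/- libraries, against 1.10, 1.12 and 1.80 in Angptl2+/+ libraries. Replicate 3 had the highest ratio in both genotypes, and the ranges overlapped. C1qc over C1qb was 0.361, 0.411 and 0.361 in Angptl2-/- libraries, against 0.477, 0.473 and 0.365 in Angptl2+/+ libraries. Those ranges overlapped through Angptl2+/+ replicate 3, and C1qc over C1qa overlapped as well, at 0.440 to 0.932 in Angptl2-/- and 0.524 to 0.658 in Angptl2+/+ libraries.

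P2ry12, the ADP receptor that steers microglial processes (ENSMUSG00000036353, chr3:59216272-59262871, minus strand), had 16.7, 18.6 and 16.8 FPKM in Angptl2-/- libraries, against 12.8, 11.5 and 14.1 FPKM in Angptl2+/+ libraries. The mean was 17.4 ± 1.05 FPKM in Angptl2-/- and 12.8 ± 1.33 FPKM in Angptl2+/+ libraries (SD, n = 3 each) and the ranges did not overlap. The log2 fold change was 0.44 (SE 0.11, limma p = 0.00557, adjusted p = 0.273, exact permutation p = 0.1). P2ry12 was the member with the highest log2 fold change.

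The promoters of C1qb, C1qc and P2ry12 are printed as examples of members without overlap between the genotypes, in opposite directions, that have a window in the table used. They are RefSeq windows from 250 bases before to 50 bases after the RefSeq start (GRCm38.p6, minus strand, 5′ to 3′). Their places are chr4:136886151-136886450 for C1qb, chr4:136892865-136893164 for C1qc and chr3:59262936-59263235 for P2ry12. The RefSeq starts differ from the GENCODE gene bounds given above, and distances are counted from the RefSeq start. Capitals mark GAGGAA, a core sequence that the myeloid factor PU.1 can bind, searched on both strands, with TTCCTC as its form on the other strand.
C1qb: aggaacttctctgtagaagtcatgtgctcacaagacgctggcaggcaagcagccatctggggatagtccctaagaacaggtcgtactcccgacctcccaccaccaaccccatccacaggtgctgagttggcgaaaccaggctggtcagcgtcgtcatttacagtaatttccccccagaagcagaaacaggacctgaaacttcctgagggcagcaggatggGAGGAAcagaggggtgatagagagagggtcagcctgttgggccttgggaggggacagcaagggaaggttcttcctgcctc
C1qc: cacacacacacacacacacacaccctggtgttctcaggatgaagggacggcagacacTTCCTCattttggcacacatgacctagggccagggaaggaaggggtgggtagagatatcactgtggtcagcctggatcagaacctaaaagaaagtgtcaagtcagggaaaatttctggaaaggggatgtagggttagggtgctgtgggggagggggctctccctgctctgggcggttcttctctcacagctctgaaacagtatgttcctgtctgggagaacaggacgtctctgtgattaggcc
P2ry12: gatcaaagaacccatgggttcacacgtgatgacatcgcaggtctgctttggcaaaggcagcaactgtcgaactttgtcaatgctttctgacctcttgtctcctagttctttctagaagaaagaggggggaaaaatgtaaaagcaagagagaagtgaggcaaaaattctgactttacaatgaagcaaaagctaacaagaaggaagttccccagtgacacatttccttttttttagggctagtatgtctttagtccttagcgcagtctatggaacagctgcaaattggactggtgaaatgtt
The letters occur once in C1qb, beginning 30 bases before the start, and once in C1qc on the opposite strand, beginning 193 bases before the start. Of the 5 members with a window in the table, 3 hold them (C1qb, C1qc, Trem2) and Cx3cr1 and P2ry12 do not, against 28.3% of 32851 promoter windows of the same length. A match is a description of letters and not a binding site. The GC content of these windows was 56.3% for C1qb, 53.3% for C1qc and 42.3% for P2ry12.

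The other surface proteins of microglia showed no such separation. Csf1r (ENSMUSG00000024621, chr18:61100598-61132149, plus strand, 24 exon blocks) had 16.8, 17.2 and 14.5 FPKM in Angptl2-/- libraries, against 15.2, 17.8 and 15.6 FPKM in Angptl2+/+ libraries. The means were 16.2 ± 1.503 FPKM in Angptl2-/- and 16.2 ± 1.43 FPKM in Angptl2+/+ libraries (SD, n = 3 each), and the 95% interval of the log2 fold change ran from −0.28 to 0.27 (limma). Csf1r overlaps another gene on the opposite strand, and without a stated strand setting reads of the overlap cannot be assigned with certainty. Cx3cr1, the fractalkine receptor (ENSMUSG00000052336, chr9:119901616-120069879, minus strand), had 11.5, 12.6 and 10.5 FPKM in Angptl2-/- libraries, against 10.9, 11.5 and 11.7 FPKM in Angptl2+/+ libraries. The Angptl2+/+ values lay within the range of the Angptl2-/- values. The log2 fold change was 0.02, with a 95% interval from −0.23 to 0.27 (limma).

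Tmem119 (ENSMUSG00000054675, chr5:113793729-113800516, minus strand) had 7.61, 7.42 and 7.88 FPKM in Angptl2-/- libraries, against 7.48, 9.04 and 7.89 FPKM in Angptl2+/+ libraries. Only Angptl2+/+ replicate 2 stood above the rest. The log2 fold change was −0.09, with a 95% interval from −0.35 to 0.17 (limma). The intervals of Csf1r, Cx3cr1 and Tmem119 did not reach the point estimates of P2ry12 (0.44) or C1qc (−0.59). The 95% interval of P2ry12, 0.175 to 0.708, overlapped those of Csf1r and Cx3cr1 but not that of Tmem119. That of C1qc, −0.893 to −0.288, overlapped only that of Tmem119 among these genes. Differences between members were not tested.

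Within the TREM2 complex, the adaptor was without overlap and the receptor was not. Tyrobp, the adaptor gene (ENSMUSG00000030579, chr7:30413760-30417585, plus strand), had 7.58, 8.08 and 5.49 FPKM in Angptl2-/- libraries, against 8.90, 12.2 and 9.89 FPKM in Angptl2+/+ libraries. The groups did not overlap, and the log2 fold change was −0.55 (SE 0.18, limma p = 0.019, adjusted p = 0.274, exact permutation p = 0.1). Its short exon length of 667 bases leaves only 60 to 97 fragments in Angptl2-/- and 106 to 144 in Angptl2+/+ libraries, a counting error of 8.33 to 12.9%. Trem2 (ENSMUSG00000023992, chr17:48346401-48354147, plus strand) had 1.55, 1.08 and 1.20 FPKM in Angptl2-/- libraries, against 1.25, 1.56 and 1.55 FPKM in Angptl2+/+ libraries. Angptl2-/- replicates 2 and 3 lay below every Angptl2+/+ library, and the groups overlapped through Angptl2-/- replicate 1. The log2 fold change was −0.18, with a 95% interval from −0.67 to 0.30 (limma), which includes the value of Tyrobp. Trem2 over Tyrobp was 0.204, 0.133 and 0.218 in Angptl2-/- libraries, against 0.140, 0.128 and 0.157 in Angptl2+/+ libraries, with overlap.

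FPKM is per length, so the genes can be ordered within a library, but the order depends on the length used. Summed over all annotated exons it is 4946 bases for Trem2 and 667 for Tyrobp. Transcripts shorter than that sum would place a gene too low. By mean FPKM over the 6 libraries the order was C1qb (25.6), C1qa (18.5), Csf1r (16.2), P2ry12 (15.1), Cx3cr1 (11.5), C1qc (10.5), Tyrobp (8.68), Tmem119 (7.89) and Trem2 (1.36). Among the 17840 protein-coding genes with a mean above 0 FPKM, C1qb stood at the 89.8th percentile of mean FPKM and Trem2 at the 37.9th. All neighbours in the order overlapped in range over the 6 libraries except Tmem119 and Trem2. Within a library, however, C1qb was above C1qa, C1qc above Tyrobp and Tmem119 above Trem2 in 6 of 6 libraries. P2ry12 stood 2nd in the mean of Angptl2-/- and 4th in that of Angptl2+/+ libraries, while C1qa stood 4th in Angptl2-/- and 2nd in Angptl2+/+ libraries.

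The members did not vary together as a single group across the 6 libraries. The Pearson r of log2(FPKM + 0.1) with the mean of the other 8 members was 0.915 for Tyrobp, 0.822 for C1qa, 0.799 for C1qc and 0.741 for C1qb. It was 0.66 for Trem2, 0.596 for Csf1r, 0.54 for Tmem119 and 0.221 for Cx3cr1, and −0.817 for P2ry12. The pair furthest apart was C1qc with P2ry12, at −0.975, and C1qc with Tyrobp had 0.876. These correlations describe 6 libraries that share the genotype split and the base composition described next, and no p is given. Of 11713 other protein-coding genes with a mean of at least 1 FPKM, the 5 with a pattern most like the members' mean were Vgf (r = 0.998), Nos3 (0.998), Men1 (0.996), Rai1 (0.995) and Mmp15 (0.995). Their transcripts had 57.0 to 64.1% GC, and none of them is a microglial marker.

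The fold change over all genes moved with the GC content of the transcript, and the members spanned that range. The median log2 fold change was 0.32 in the 960 genes below 40% GC, 0.21 from 40 to 45%, 0.07 from 45 to 50%, −0.09 from 50 to 55% and −0.29 in the 3396 genes at or above 55%. Of the genes at or above 55% GC, 88.2% had a negative value, against 9.69% of those below 40%. P2ry12, with 38.6% GC, is the only member in the lowest band. C1qa (59.5%), C1qb (57.4%), C1qc (57.5%) and Tmem119 (59.1%) are in the highest, and Cx3cr1, Csf1r, Trem2 and Tyrobp are between 50 and 55%. Thus C1qb, C1qc and C1qa were below the median of their band, P2ry12 above its own, and Tmem119, at −0.09, above it as well.

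**Figure D2:**
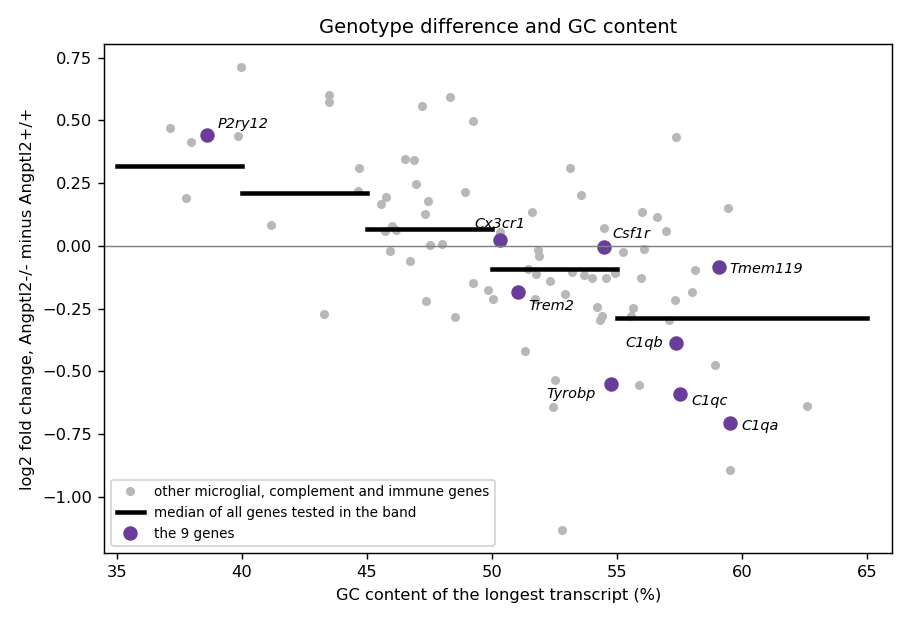
Log2 fold change (vertical axis, Angptl2-/- minus Angptl2+/+) against the GC content of the longest transcript in percent (horizontal axis). Purple points are the 9 genes, grey points the tested genes of the related lists, and black lines the median of all genes tested in each GC band, which goes from 0.32 in the lowest to −0.29 in the highest band.

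After a loess correction of each library for GC content, C1qc was still without overlap, with corrected log2 levels of 3.19, 3.18 and 3.25 in Angptl2-/- libraries, against 3.49, 3.66 and 3.46 in Angptl2+/+ libraries. Its log2 fold change was then −0.33 (limma adjusted p = 0.698). That of C1qa was −0.39, of C1qb −0.13 and of Tyrobp −0.39, and all 3 then overlapped between genotypes. P2ry12 had 0.11 (limma adjusted p = 0.843) and overlapped. Tmem119 changed sign, at 0.22 after the correction, with every Angptl2-/- library above every Angptl2+/+ library. No share of all genes without overlap is given for the corrected levels, so the separation of C1qc and Tmem119 there cannot be set against one. The median over the members was −0.13 after the correction. The part of GC content in the members' differences was not tested further.

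**Figure D3:**
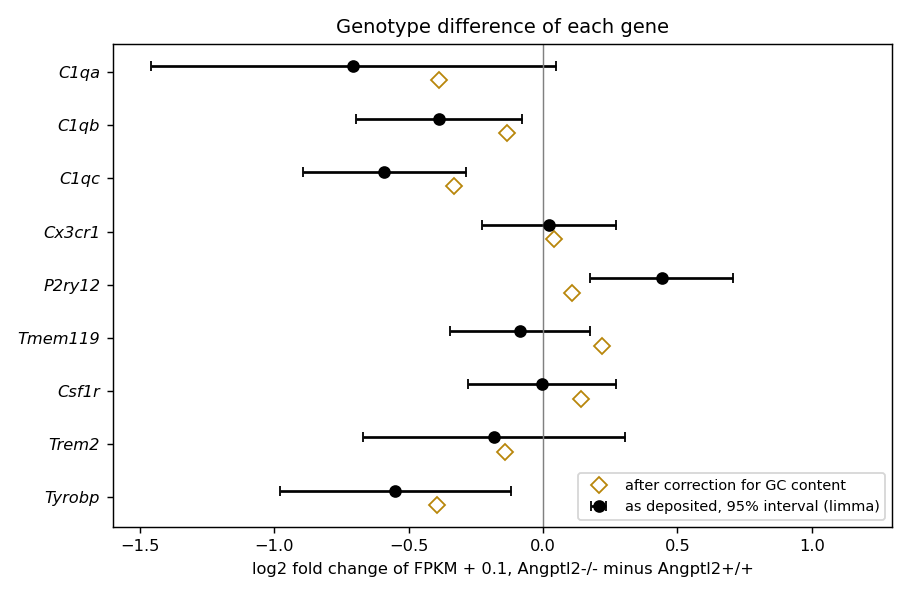
Log2 fold change of each of the 9 genes (horizontal axis, Angptl2-/- minus Angptl2+/+). Black points are values from the deposited FPKM with their 95% interval from limma, and open diamonds are values after correction for GC content. The diamonds of C1qa, C1qb, C1qc, Tyrobp and P2ry12 lie closer to 0 than the points, and that of Tmem119 lies on the other side of 0.

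Leaving out single libraries changed which members had an unadjusted p under 0.05, except for C1qc and P2ry12, which kept it each time (limma). The log2 fold change ran from −0.67 to −0.48 for C1qc and from 0.37 to 0.52 for P2ry12. C1qb lost it without Angptl2-/- replicate 2 (log2 fold change −0.31), Angptl2+/+ replicate 2 (−0.34) or Angptl2+/+ replicate 3 (−0.34). Tyrobp lost it without Angptl2-/- replicate 3 (−0.38) or Angptl2+/+ replicate 2 (−0.43). C1qa gained it without Angptl2-/- replicate 1 (−1.0) or Angptl2+/+ replicate 3 (−0.89), and had −0.37 without Angptl2-/- replicate 3. Libraries with more than 1 FPKM of the Y-linked Ddx3y were 2 of Angptl2-/- and 1 of Angptl2+/+, and those with Xist were 1 of Angptl2-/- and 2 of Angptl2+/+, so sex was not balanced. Each of these sets has 1 library in 1 genotype, so its differences are values without a test. On the log2 scale, in libraries with Ddx3y and then with Xist, they were −0.41 and −0.71 for C1qc, −0.40 and −0.51 for C1qb, −0.37 and −0.81 for C1qa, −0.61 and −0.36 for Tyrobp, and 0.24 and 0.61 for P2ry12. Those of Trem2 were −0.17 and −0.34 and those of Tmem119 −0.03 and −0.15, while Cx3cr1 (−0.08 and 0.17) and Csf1r (−0.0029 and 0.07) changed sign between the sets.

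The rest of the microglial programme gave a mixed picture. Of 12 other microglial identity genes, all tested, 5 were negative and 7 positive (median log2 fold change 0.07), and only Gpr34 had an unadjusted p under 0.05. Gpr34, a lysophospholipid receptor with 37.1% GC, had 6.19, 7.26 and 8.76 FPKM in Angptl2-/- libraries, against 5.47, 5.36 and 4.96 FPKM in Angptl2+/+ libraries, without overlap (log2 fold change 0.47, limma adjusted p = 0.273). After the GC correction its log2 fold change was 0.10.

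In the transcription factors of microglia, 7 of 8 were tested, 5 negative and 2 positive (median −0.22). Spi1, which encodes PU.1, the master factor of myeloid cells, had 1.01, 0.879 and 1.04 FPKM in Angptl2-/- libraries, against 1.29, 1.65 and 1.27 FPKM in Angptl2+/+ libraries. It was without overlap at a low level (log2 fold change −0.48, limma adjusted p = 0.308), and −0.18 after the GC correction of a transcript with 58.9% GC.

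Of 6 genes listed as ligands of the members' receptors, 5 were negative and 1 positive (median −0.29), and 2 had an unadjusted p under 0.05. The list also holds Tgfb1 (log2 fold change −0.53), whose product binds other receptors. Apoe, the lipoprotein that TREM2 binds, had 413, 263 and 237 FPKM in Angptl2-/- libraries, against 620.0, 653 and 408 FPKM in Angptl2+/+ libraries, so that Angptl2-/- replicate 1 and Angptl2+/+ replicate 3 overlapped. Its log2 fold change was −0.89 (SE 0.26, limma adjusted p = 0.273) and −0.57 after the GC correction. Cx3cl1, which encodes fractalkine, had 213, 225 and 198 FPKM in Angptl2-/- libraries, against 235 and 248 FPKM in Angptl2+/+ replicates 1 and 2 and a still higher value in replicate 3. It was without overlap, at −0.29 (limma adjusted p = 0.306), and −0.05 after the GC correction.

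Signalling partners of TREM2, TYROBP and CSF1R were tested for 7 of 9 genes, with 4 negative and 3 positive values (median −0.04). Only Cbl, a ubiquitin ligase that acts on CSF1R, had an unadjusted p under 0.05, with 8.92, 10.3 and 10.6 FPKM in Angptl2-/- libraries, against 6.85, 7.95 and 8.76 FPKM in Angptl2+/+ libraries. Its log2 fold change was 0.34 (limma adjusted p = 0.285), and 0.24 after the GC correction. Grb2, an adaptor and the most abundant partner, overlapped with 49.2 to 57.5 FPKM in Angptl2-/- and 51.6 to 54.8 FPKM in Angptl2+/+ libraries.

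Downstream of C1q, most complement components were near the floor of the table. Of 8 other complement components only 2 were tested, 1 negative and 1 positive, and C1ra, C1rb, C1s1, C2, C3 and Cfb had a mean below 0.5 FPKM. C4b, cleaved by the C1 complex, was the most abundant, with 2.31, 1.55 and 2.09 FPKM in Angptl2-/- libraries, against 2.81, 3.17 and 0.859 FPKM in Angptl2+/+ libraries (limma adjusted p = 0.983). The Angptl2+/+ range enclosed all Angptl2-/- values. All 3 complement receptors tested, of 6, were positive (median 0.21), with no unadjusted p under 0.05. Cd93, the most abundant, had 2.55 to 3.37 FPKM in Angptl2-/- and 2.24 to 3.21 FPKM in Angptl2+/+ libraries, and Itgb2, a chain of complement receptor integrins, had 0.752 to 1.0 FPKM in Angptl2-/- and 0.514 to 0.869 FPKM in Angptl2+/+ libraries. Of 8 regulators tested, of 9, 6 were positive and 2 negative (median 0.17), and Cd55, which speeds the decay of C3 convertases, was the only one with an unadjusted p under 0.05. Cd55 had 1.22, 1.72 and 1.89 FPKM in Angptl2-/- libraries, against 0.901, 1.18 and 1.03 FPKM in Angptl2+/+ libraries, without overlap. Its log2 fold change was 0.57, and 0.37 after the GC correction. Sez6, a neuronal complement regulator and the most abundant of the list, overlapped at 44.0 to 60.0 FPKM in Angptl2-/- and 38.6 to 57.6 FPKM in Angptl2+/+ libraries.

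Genes of leukocytes and phagocytes outside these groups gave values in both directions. Of 10 general leukocyte genes, 7 were tested, 2 negative and 5 positive (median 0.13). Cd53, a tetraspanin of leukocytes, had the smallest p of these. It had 4.64, 5.20 and 4.84 FPKM in Angptl2-/- libraries, against 2.61, 2.68 and 3.65 FPKM in Angptl2+/+ libraries. Its log2 fold change was 0.71 (limma adjusted p = 0.273), opposite to that of C1qc, and 0.42 after the GC correction of a transcript with 39.95% GC. Of the 10 lysosome genes of phagocytes, 8 were negative (median −0.14), and only Npc2, a lysosomal cholesterol carrier, had an unadjusted p under 0.05 (log2 fold change −0.42, and −0.37 after the GC correction). The cathepsin gene Ctsb, the most abundant, overlapped at 70.7 to 82.5 FPKM in Angptl2-/- and 74.8 to 94.5 FPKM in Angptl2+/+ libraries. Of the genes of disease- and white matter-associated microglia, 6 of 11 were tested, 4 negative and 2 positive (median −0.06), and Igf1, a growth factor, was the only one with an unadjusted p under 0.05 (log2 fold change 0.41, and 0.06 after the GC correction of a transcript with 37.96% GC). In 9 tested MHC and interferon genes, 4 were negative and 5 positive (median 0.00), with Isg15 at −1.13 and H2-D1 at −0.55, both with overlap, and −1.04 and −0.35 after the GC correction. B2m, the light chain of MHC class I and the most abundant, had 45.8 to 61.9 FPKM in Angptl2-/- and 42.3 to 68.6 FPKM in Angptl2+/+ libraries.

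**Figure D4:**
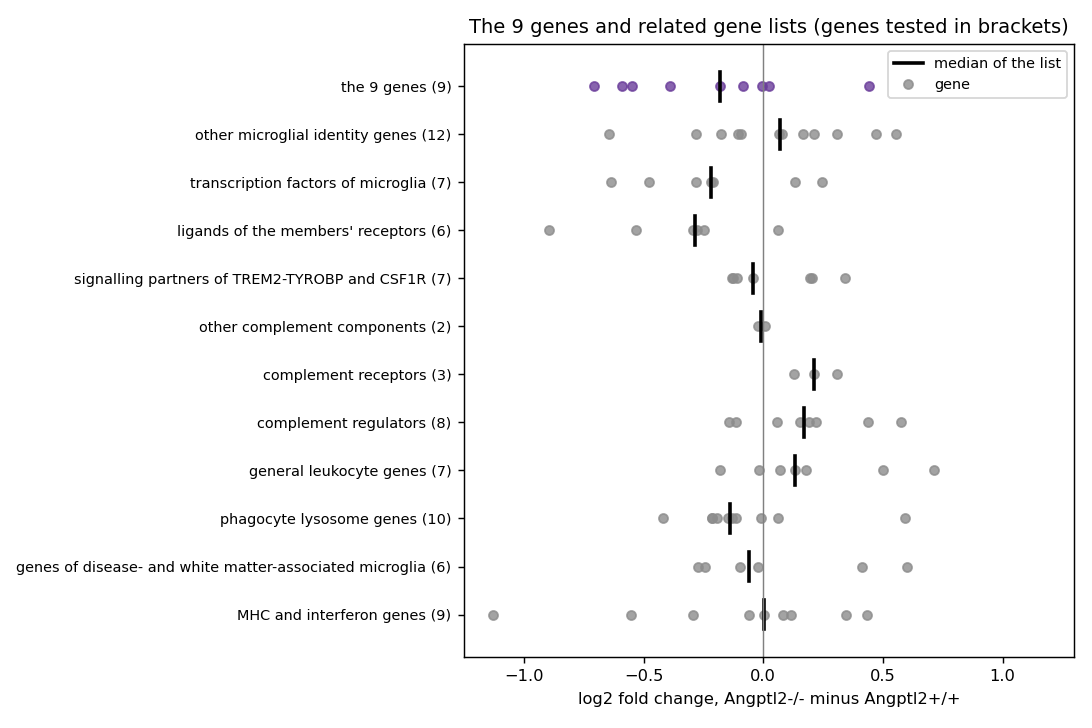
Log2 fold change (horizontal axis, Angptl2-/- minus Angptl2+/+) of each tested gene of the 9 genes and of 11 related lists, 1 list per row with the number tested in brackets. The black tick is the median of the list. The 9 genes run from −0.71 to 0.44, and the medians of the lists from −0.29 for the ligands to 0.21 for the complement receptors.

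In RNA from brain tissue with all its cell types, changes in microglial number and in RNA per cell cannot be told apart. Some other lists moved with genotype as well, and others overlapped or varied between single libraries. The part of these lists in the members' differences was not tested. The summed FPKM of 5 red blood cell markers was 125 to 274 in Angptl2-/- and 302 to 498 in Angptl2+/+ libraries, with all 5 lower at an unadjusted p under 0.05, and that of 5 endothelial markers was 33.8 to 48.9 in Angptl2-/- and 50.7 to 62.4 in Angptl2+/+ libraries. Of the endothelial markers only Cldn5 had an unadjusted p under 0.05, with at most 30.4 FPKM in Angptl2-/- and at least 33.7 FPKM in Angptl2+/+ libraries, and the other 4 overlapped. The sum of 5 choroid plexus markers was 103 to 932 in Angptl2-/- and 1.31 to 6.92 in Angptl2+/+ libraries, with 3 of the 5 higher at an unadjusted p under 0.05. Border-associated macrophages, which also express C1q, had sums of 4.61 to 10.2 in Angptl2-/- and 6.26 to 10.2 in Angptl2+/+ libraries, with no marker at an unadjusted p under 0.05. Markers of monocytes and neutrophils summed to at most 2.04 FPKM in Angptl2-/- and 1.51 in Angptl2+/+ libraries. Ly6c2 and Retnlg were at 0 in every Angptl2-/- library and near the floor in Angptl2+/+ libraries, at no more than 0.0205 and 0.298 FPKM. Lymphocyte markers summed to at most 0.348 FPKM in Angptl2-/- and 1.02 in Angptl2+/+ libraries. All 5 striatal markers had a positive log2 fold change (median 1.56), 3 of them at an unadjusted p under 0.05, with the sum at 69.8 to 157 in Angptl2-/- and 32.9 to 84.2 in Angptl2+/+ libraries, and Drd1 did not overlap. All 5 markers of myelinating oligodendrocytes were negative (median −0.59), with the sum at 390.0 to 799 in Angptl2-/- and 579 to 1203 in Angptl2+/+ libraries, and only Mag, at −0.82 without overlap, had an unadjusted p under 0.05. All 5 cerebellar markers were negative as well with none under that p, and their sum was 8.64 to 22.5 in Angptl2-/- and 7.37 to 68.2 in Angptl2+/+ libraries. All 5 were highest in Angptl2+/+ replicate 1, where the sum was 68.2, against 23.2 and 7.37 in Angptl2+/+ replicates 2 and 3. Of 5 astrocyte markers, 3 were negative and 2 positive, with the sum at 155 to 169 in Angptl2-/- and 146 to 203 in Angptl2+/+ libraries, and Aldh1l1, at −0.62 without overlap, was the only one under that p. Of 5 neuron markers, 1 was lower (Rbfox3) and 1 higher (Stmn2) at that p, and their sums were 872 to 962 in Angptl2-/- and 781 to 982 in Angptl2+/+ libraries.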

How the data were processed

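RNA-seq was performed on 3 Angptl2-/- and 3 Angptl2+/+ brain samples at postnatal day 15, and no sample was left out. The table deposited by the authors holds FPKM, a value for each gene in each library. Bowtie 0.12.2 and mm8 appear in the submitters' processing notes, and the program that counted fragments, its annotation and its use of strand were not given in the sources used here.

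GENCODE M21 (GRCm38) contained 54495 of the 54532 gene identifiers and supplied symbols, coordinates, exon lengths and the GC content of the longest transcript. FPKM was multiplied by exon length and divided by a step, the size of a single fragment, fitted in each library to give whole numbers. Of the values above 0, 96.6 to 96.8% were then whole numbers of fragments (tolerance 0.05). These fragments gave the counting error, as the square root of the count, the library totals and the mitochondrial shares. They were also used for voom and for the rescaling without mitochondrial and haemoglobin genes, but not for the main limma fit.

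limma 3.58.1 (R 4.3.3, intensity trend) was fitted to log2(FPKM + 0.1) for genes with a mean of at least 0.5 FPKM, with Benjamini-Hochberg adjustment over all genes tested and a threshold of 0.05. Fold changes are on that scale, which understates changes of low genes. Permutation tests were exact and two-sided over 20 placements. The loess correction for GC content used a span of 0.3. The code was tested on simulated data. Python 3.11.15 with pandas 2.3.3 made the tables and matplotlib 3.10.9 the figures.

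The members and lists were chosen with earlier results of these data known. The genes named are the 9 members, the targeted gene, the most abundant gene and the gene with the smallest p of the related lists, for cell type markers mainly the gene with the smallest p, and the 5 genes most like the members' mean. Of the genes this rule gave, 2 are not reported here. H2-D1, Tgfb1, Rbfox3, Gapdh, Ttr and the genes listed as below 0.5 FPKM or at 0 were named after their values were seen. As alternatives, pseudocounts of 1 and 0.01, a mean of at least 1 FPKM, no filter, 3 other scalings, no intensity trend, voom on recovered fragments, corrections for GC content and gene length, the replicate number as a block, and omission of each library were tried. The correction for GC content and length together was added after the data were seen.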

Additional observations from a re-analysis of the deposited data

How the results depend on the processing

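No alternative called a member at an adjusted p of 0.05. The count of genes called was 0, except 1 with the replicate number as a block (Ttr) and a range of 0 to 1 when single libraries were left out (Gapdh without Angptl2+/+ replicate 1). Whether the replicate numbers pair the samples is not stated. Deviations from the group means correlated at 0.0371, −0.0693 and 0.162 between same-numbered libraries. With so few libraries per genotype, these values cannot settle whether samples were paired. With the block, 4 members were lower at an unadjusted p under 0.05, C1qa being added. Members lower at an unadjusted p under 0.05 ranged from 1 to 4 when single libraries were left out, the 1 being C1qc without Angptl2+/+ replicate 2, and numbered 2 with the GC correction (C1qc, Tyrobp), 2 with the length correction (C1qc, Tyrobp) and 1 with the correction for GC content and length (added after the data were seen). Members higher numbered 0 with the GC correction and 0 with both corrections, but 1 with the length correction (P2ry12, log2 fold change 0.503).

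Over all genes, those at an unadjusted p under 0.05 numbered 631 lower and 409 higher with the GC correction, 658 and 407 with both corrections, 790 and 481 without Angptl2-/- replicate 2, 835 and 465 without Angptl2-/- replicate 3, 1000 and 599 without Angptl2+/+ replicate 1, and 881 and 676 without Angptl2+/+ replicate 2, against 1355 and 1054. Quantile normalization gave 1150 lower and 1325 higher. The counts were 1492 lower and 1164 higher with the replicate block, and 1356 and 956 with the length correction. Without Angptl2-/- replicate 1, the omission with the most members lower, they rose to 1656 and 1370. Without Angptl2+/+ replicate 3 they were 1606 and 1373.

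Log2 fold changes near 0, and that of Coro1a, changed sign. Csf1r was 0.0254 with quantile normalization, 0.000981 with median-ratio scaling, 0.0104 when rescaled without mitochondrial and haemoglobin genes, 0.140 with the GC correction and 0.125 with both, and ranged from −0.0519 to 0.0745 without single libraries. Cx3cr1 ranged from −0.042 to 0.0877. Tmem119 was 0.219 with the GC correction and 0.228 with both. Grb2 was 0.0348 with quantile normalization, 0.0267 with the GC correction, 0.00351 with the length correction and 0.024 with both. Cd9, the most abundant gene of the disease-associated list, was 0.00642 with quantile normalization and 0.0545 with the length correction, and ranged from −0.195 to 0.160. With the GC correction and with both, C4b was 0.152 and 0.138, and B2m −0.176 and −0.111. Coro1a, the most abundant general leukocyte gene, had −0.182 without overlap in the main fit, and 0.0893 and 0.0894 with these corrections. Without single libraries C4b ranged from −0.586 to 0.299 and B2m from −0.0708 to 0.276. The cause was not tested. Depth limits Tyrobp and Trem2 most.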

Other observations

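The levels relative to Csf1r, a receptor of the same cells, were set side by side after the values had been seen, and are given without a test. The summed C1q chains over Csf1r were 3.23, 2.45 and 2.66 in Angptl2-/- libraries, against 4.0, 4.11 and 3.79 in Angptl2+/+ libraries, without overlap. Tyrobp over Csf1r was 0.451, 0.469 and 0.380 in Angptl2-/- libraries, against 0.587, 0.681 and 0.633 in Angptl2+/+ libraries, also without overlap. P2ry12 over Csf1r was 0.993, 1.08 and 1.16 in Angptl2-/- libraries, against 0.842, 0.643 and 0.905 in Angptl2+/+ libraries, again without overlap and in the other direction. The GC content of the transcripts was 57.4 to 59.5% for the C1q genes, 54.8% for Tyrobp, 54.5% for Csf1r and 38.6% for P2ry12, and its part in these ratios was not tested.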
